A study of Homo sapiens with 12 samples.

Results

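TXNIP, the arrestin-domain genes ARRDC4 and ARRDC3, the transcription factor genes MLXIP and MLX, and the thioredoxin gene TXN were examined in prostate cancer cells with lowered or raised GALNT7. These are 6 of the 59424 Ensembl genes in the deposited tables, each matched by its identifier in both. They were chosen as a group of glucose-sensing genes. TXNIP was selected on its normalised counts in the overexpression comparison, where its level was far lower. For that comparison the values of all 6 genes are therefore given as a description without a test. The knockdown comparison was not used in the choice and was tested.

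RNA was sequenced in 12 libraries from 2 prostate cancer cell lines, to compare gene expression in cells with altered GALNT7, an enzyme that adds sugars to proteins in O-linked glycosylation. CWR22Rv1 cells carried either a lentiviral control shRNA (shControl) or a lentiviral knockdown of GALNT7 (GALNT7 KD). DU145 cells carried either the negative control of a lentiviral open reading frame (OEControl) or GALNT7 overexpression (GALNT7 OE). Each of the 4 groups had 3 libraries labelled as biological replicates. All were stable lines made by lentiviral transduction, so every control also carried a vector. The shRNA sequence behind these libraries, and whether a line came from a clone or a pool, were not used here. Since each condition was a transduced line, the p-values measure the spread between libraries of such a line.

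The values are normalised counts, which are reads per gene divided by a size factor for each library, and the 2 cell lines were scaled separately. Differences were tested within a line with limma on log2(normalised count + 1). Genes needed a mean of at least 5, with p adjusted over all genes tested and a threshold of 0.05. Recovered reads per library numbered 18364512 to 20429381 in GALNT7 KD, below the 21141983 to 22264533 of shControl, and 21628718 to 24356910 in DU145 cells. GALNT7 itself was 999 ± 122 (SD, n=3) in shControl against 461 ± 53.7 in GALNT7 KD, and 964 ± 75.8 in OEControl and 2181 ± 176 in GALNT7 OE, without overlap in either line. The epithelial markers EPCAM, KRT8, KRT18 and CDH1 were present in both lines. The prostate markers KLK2 and KLK3 were at most 1.01 normalised counts in DU145 cells. No library stood apart from the other 2 of its group: each was at least 2-fold outside both for 0.718% to 1.23% of genes with a mean of at least 50.

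TXNIP is an alpha-arrestin that binds and inhibits thioredoxin, the product of TXN, and promotes removal of glucose transporters from the cell surface. ARRDC4 is a close relative of TXNIP with a like effect on glucose uptake, and ARRDC3 is another family member, an adaptor for ubiquitin ligases that act on membrane receptors. MLXIP encodes MondoA, which senses glucose 6-phosphate and, paired with the MLX protein, enters the nucleus and binds carbohydrate response elements in the TXNIP and ARRDC4 promoters. Such an element is a pair of E-box-like sites separated by 5 bases.

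The promoters of the 3 arrestin genes are shown because MondoA is known to act on TXNIP and ARRDC4 and because the 3 genes differed in the overexpression comparison. Each line gives, 5′ to 3′ on the strand of the gene, the 200 bases from 250 to 51 before the RefSeq start in GRCh38.p14. The windows are chr1:145996630-145996829 on the minus strand for TXNIP, chr15:97960453-97960652 on the plus strand for ARRDC4 and chr5:91383368-91383567 on the minus strand for ARRDC3. Capitals mark matches to the searched motifs.
TXNIP: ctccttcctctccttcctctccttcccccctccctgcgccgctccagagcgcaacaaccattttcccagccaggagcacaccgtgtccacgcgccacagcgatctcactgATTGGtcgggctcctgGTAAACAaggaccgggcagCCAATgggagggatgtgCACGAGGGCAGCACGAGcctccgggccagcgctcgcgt
ARRDC4: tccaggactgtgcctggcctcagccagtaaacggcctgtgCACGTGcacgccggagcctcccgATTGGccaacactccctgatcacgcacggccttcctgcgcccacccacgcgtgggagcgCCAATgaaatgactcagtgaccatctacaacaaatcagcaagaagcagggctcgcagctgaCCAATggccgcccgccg
ARRDC3: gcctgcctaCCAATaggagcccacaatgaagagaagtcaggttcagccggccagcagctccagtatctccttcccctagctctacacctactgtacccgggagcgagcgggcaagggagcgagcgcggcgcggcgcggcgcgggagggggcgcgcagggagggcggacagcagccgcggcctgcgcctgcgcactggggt

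Matches were searched on both strands in 300 bases around the start, 250 before and 50 after, for paired sites (CACGNG repeated on the same strand with 5 bases between), the E box CACGTG, the CCAAT box CCAAT and the forkhead motif GTAAACA. TXNIP held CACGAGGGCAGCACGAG from 88 to 72 bases upstream, a spelling of the paired sites, which were found in 20 of 35116 promoters (0.057%). It also held GTAAACA from 124 to 118 bases upstream, a motif in 3.42% of promoters, and CCAAT boxes at 140 to 136 and 105 to 101. ARRDC4 held no paired sites in these letters. It held CACGTG from 210 to 205 bases upstream, found in 7.26% of promoters, and 3 CCAAT boxes, found in 34.6%. The ARRDC3 promoter shown held 1 CCAAT box, from 241 to 237 bases upstream. TXNIP and ARRDC3 each have a further RefSeq start. That of TXNIP held none of the motifs, and that of ARRDC3 held TGTTTAC, the forkhead motif on the other strand. MLX held CACGTG from 50 to 45 bases upstream and a CCAAT box, MLXIP held a CCAAT box, and TXN held none of the 4 motifs. CACGTG is also a spelling of CACGNG, but no match overlapped another in these promoters. A match describes the letters in the window and does not show that a factor was bound.

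TXNIP (ENSG00000265972) lies at chr1:145992435-145996600 on the minus strand of GRCh38. It was lower in GALNT7 KD than in shControl cells. Its normalised count was 6232, 6326 and 6466 in the shControl libraries and 3744, 3803 and 3918 in the GALNT7 KD libraries. The groups did not overlap, and the lowest control was far above the highest knockdown library. The mean fell from 6341 ± 118 (SD, n=3) to 3822 ± 88.5, a fold of 0.603 (95% interval 0.563 to 0.645). The log2 fold change was -0.73 (standard error 0.0411, limma adjusted p=4.4e-04), and it stayed past the threshold under all 18 alternative settings.

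In DU145 cells TXNIP was at 8265, 8165 and 8145 normalised counts in the OEControl libraries and at 442, 410 and 443 in the GALNT7 OE libraries. The control libraries differed among themselves by little beside the gap to the overexpression libraries. The mean was 8192 ± 64.2 (SD, n=3) in OEControl and 432 ± 18.5 in GALNT7 OE, which is 18.9-fold lower and a log2 fold change of -4.24. TXNIP was the 23rd lowest log2 fold change among 13637 genes with a mean of at least 50. In knockdown it was the 379th lowest of 12959. TXNIP was thus lower in the line with less GALNT7 and in the line with more GALNT7, each against its own control. The sizes of the 2 changes were not tested against each other because the lines and tables differ.

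The read numbers behind these values were high. TXNIP had 6677 to 7155 reads in shControl, 3565 to 4068 in GALNT7 KD, 7984 to 8659 in OEControl and 422 to 444 in GALNT7 OE libraries.

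**Figure D1:**
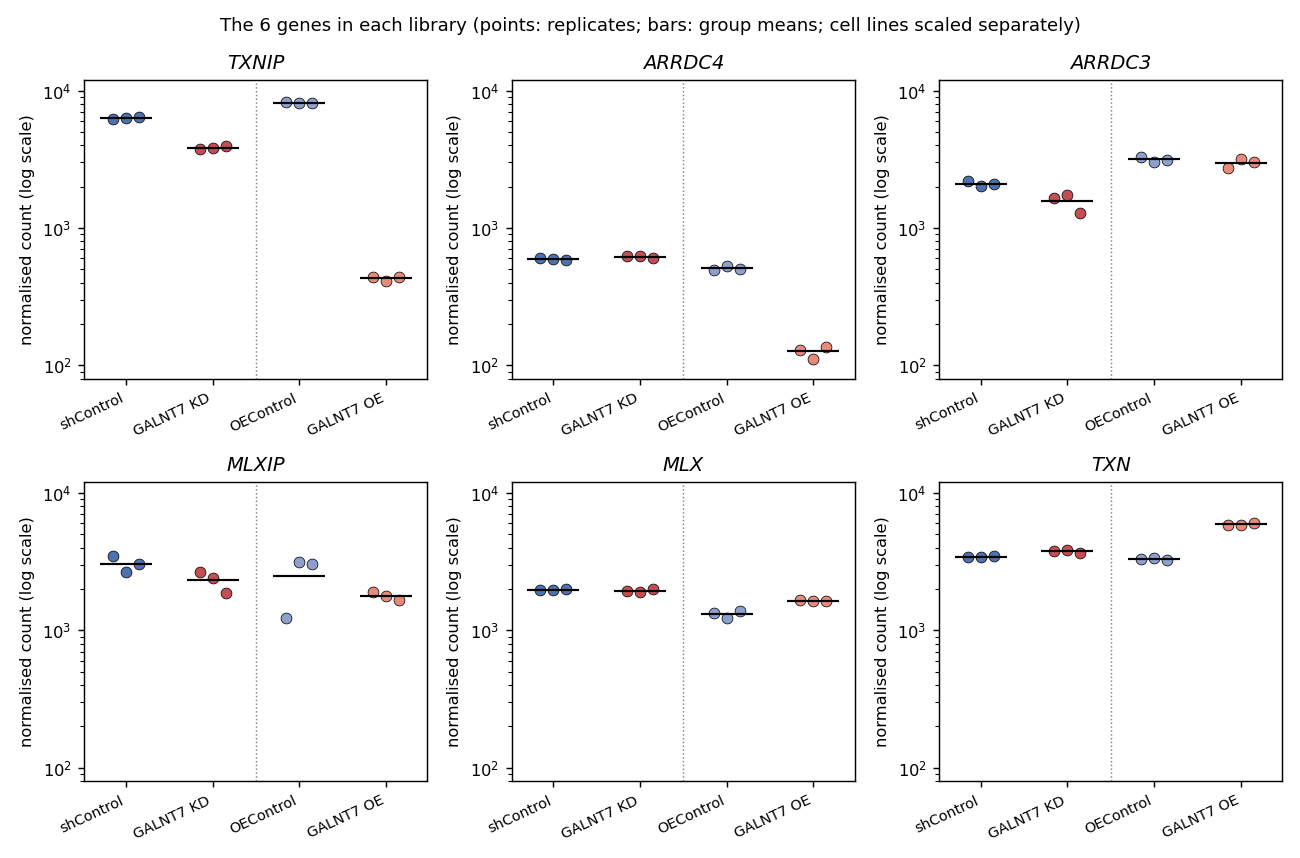
Normalised counts on a log scale for the 6 genes, with 1 point per library and a bar at the group mean of 3 libraries; the dotted line separates CWR22Rv1 from DU145, which were scaled separately. TXNIP lies at 410 to 443 in GALNT7 OE against 8145 to 8265 in OEControl and ARRDC4 at 112 to 137 against 497 to 529, while OEControl replicate 1 is low for MLXIP.

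ARRDC4 (ENSG00000140450) lies at chr15:97960698-97973838 on the plus strand. In CWR22Rv1 cells it was at 607, 597 and 587 normalised counts in shControl and 625, 623 and 602 in GALNT7 KD. The groups overlapped, and the log2 fold change was 0.05 (95% interval -0.12 to 0.21, limma adjusted p=0.72). The DU145 libraries were at 497, 529 and 506 in OEControl and at 130, 112 and 137 in GALNT7 OE. All 3 overexpression libraries were far below all 3 controls, with means of 511 ± 16.3 and 127 ± 13.2 (SD, n=3). That is 4.03-fold lower, a log2 fold change of -2.01, and the 176th lowest of 13637 genes.

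ARRDC3 (ENSG00000113369) lies at chr5:91368724-91383359 on the minus strand and overlaps the antisense gene ARRDC3-AS1, whose mean was 24.2 normalised counts in CWR22Rv1 and 23.8 in DU145 cells. In CWR22Rv1 cells ARRDC3 was at 2210, 2019 and 2079 in shControl and 1652, 1750 and 1294 in GALNT7 KD. The groups did not overlap, but the knockdown libraries were spread, with replicate 3 the lowest. The log2 fold change of -0.44 (95% interval -0.72 to -0.16) did not pass the threshold (limma adjusted p=0.067). With DESeq2 on the recovered reads it passed (adjusted p=0.0069), as it did when genes were centred on the median of their chromosome (limma adjusted p=0.02). In DU145 cells ARRDC3 was at 3304, 3046 and 3140 in OEControl and 2714, 3159 and 3024 in GALNT7 OE, and the groups overlapped. Its log2 fold change was -0.09, so the mean levels of the 3 arrestin genes ranged from near their control level (ARRDC3) to 18.9-fold lower (TXNIP).

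The ratios of reads per kilobase within a library show how the arrestin genes changed relative to each other. TXNIP/ARRDC4 was 11.5, 11.9 and 12.4 in shControl and 6.73, 6.86 and 7.31 in GALNT7 KD. The knockdown libraries were all lower (exact permutation, two-sided, p=0.1, which is the lowest p possible with 3 libraries a group; 0.17 when adjusted over 5 ratios). In DU145 cells the ratio was 18.7, 17.3 and 18.1 in OEControl and 3.81, 4.12 and 3.62 in GALNT7 OE, so TXNIP was lower relative to ARRDC4 in both treated lines. ARRDC3/ARRDC4 was 2.91 ± 0.108 (SD, n=3) in shControl against 2.09 ± 0.284 in GALNT7 KD (exact permutation p=0.1, adjusted 0.17), and 5.12 ± 0.365 in OEControl and 19.6 ± 3.29 in GALNT7 OE. TXNIP/ARRDC3 was 4.11 ± 0.237 and 3.39 ± 0.639 in CWR22Rv1 cells, where the groups overlapped (exact permutation p=0.2, adjusted 0.2). In DU145 cells it was 3.53 ± 0.122 and 0.199 ± 0.0225. ARRDC3, well below TXNIP in OEControl, was above it in all 3 GALNT7 OE libraries.

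**Figure D2:**
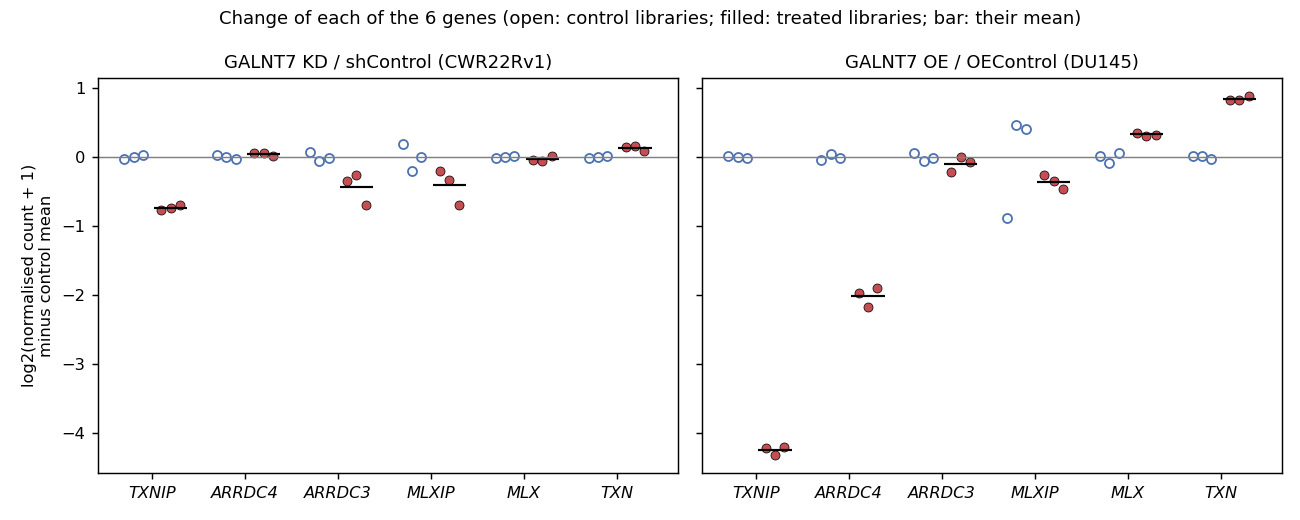
Change of each of the 6 genes in each library, as log2(normalised count + 1) minus the control mean of its cell line; open points are control libraries, filled points GALNT7 KD or GALNT7 OE libraries, and bars the mean of 3. In GALNT7 OE the means are -4.24 for TXNIP, -2.01 for ARRDC4, -0.09 for ARRDC3, -0.35 for MLXIP, 0.33 for MLX and 0.85 for TXN; in GALNT7 KD the mean for TXNIP is -0.73.

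MLXIP (ENSG00000175727), the gene for MondoA, lies at chr12:122078722-122147347 on the plus strand. It was at 3468, 2644 and 3031 normalised counts in shControl and 2637, 2417 and 1867 in GALNT7 KD. The groups did not overlap by a small margin, and the spread within each was wide. The log2 fold change was -0.41 (standard error 0.15, limma adjusted p=0.15). The 922 tested genes of chromosome 12 had a median log2 fold change of -0.28 in this comparison, and MLXIP centred on that median was at -0.20. The part of this chromosome-wide shift in the MLXIP value was not tested.

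In DU145 cells MLXIP was at 1228, 3145 and 3022 in OEControl and 1899, 1787 and 1648 in GALNT7 OE. OEControl replicate 1 was below every overexpression library and replicates 2 and 3 were above them, so the groups overlapped. The log2 fold change was -0.35 with all libraries and -0.80 without OEControl replicate 1. It was -0.12 without OEControl replicate 2. The direction of MLXIP in overexpression kept its sign, but its size moved with the control library left out. OEControl replicate 1 as a whole stood at least 2-fold outside both others for 0.865% of genes overall.

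MLX (ENSG00000108788), the partner of MondoA, lies at chr17:42567068-42573239 on the plus strand and overlaps PSMC3IP on the other strand at its end. It was at 1956, 1974 and 1998 in shControl and 1918, 1903 and 1991 in GALNT7 KD, and the groups overlapped. The log2 fold change was -0.03 (95% interval -0.15 to 0.09, limma adjusted p=0.77). The DU145 libraries were at 1332, 1233 and 1371 in OEControl and 1675, 1623 and 1640 in GALNT7 OE. All overexpression libraries were above all controls, by 1.26-fold and a log2 fold change of 0.33. MLXIP/MLX per kilobase overlapped between the groups in both lines. It was 0.473 ± 0.0668 (SD, n=3) and 0.366 ± 0.0699 in CWR22Rv1 cells (exact permutation p=0.2, adjusted 0.2), and 0.579 ± 0.263 and 0.331 ± 0.0206 in DU145 cells.

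TXN (ENSG00000136810), the gene for thioredoxin, lies at chr9:110243811-110256640 on the minus strand. The 7 annotated TXN pseudogenes summed to at most 3.15 normalised counts in any library, and to at most 0.0766% of TXN. TXN was at 3396, 3430 and 3465 in shControl and 3784, 3854 and 3650 in GALNT7 KD. The knockdown libraries were all higher by a small margin, with a log2 fold change of 0.13 (95% interval 0.03 to 0.24) that did not pass the threshold (limma adjusted p=0.11; DESeq2 adjusted p=0.036). The DU145 libraries were at 3332, 3355 and 3238 in OEControl and 5865, 5884 and 6092 in GALNT7 OE. The means of 3309 ± 62 and 5947 ± 126 (SD, n=3) differ 1.8-fold, a log2 fold change of 0.85, the 906th highest of 13637 genes.

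Because TXNIP binds thioredoxin, their relative level was also followed within each library. TXN/TXNIP in reads per kilobase was 1.73, 1.72 and 1.7 in shControl and 3.21, 3.22 and 2.96 in GALNT7 KD, a mean of 1.72 ± 0.0148 (SD, n=3) against 3.13 ± 0.148. The 3 knockdown ratios were all above the 3 control ratios (exact permutation, two-sided, p=0.1; 0.17 when adjusted over 5 ratios). The DU145 ratios were 1.28, 1.3 and 1.26 in OEControl and 42.1, 45.5 and 43.7 in GALNT7 OE. TXN RNA thus exceeded TXNIP RNA in every library, slightly in OEControl and by the widest margin in GALNT7 OE.

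**Figure D3:**
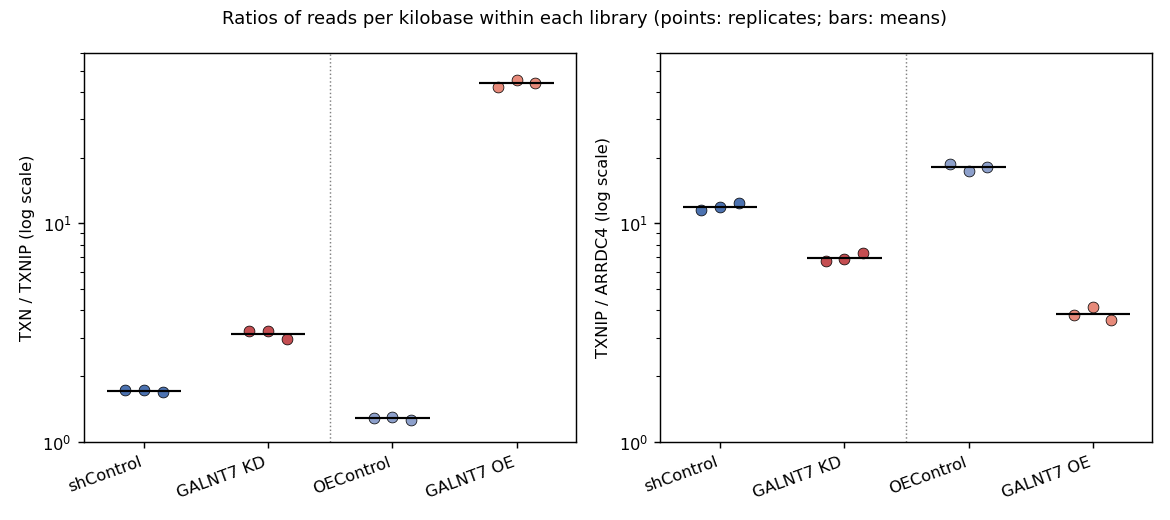
Ratios of reads per kilobase within each library on a log scale, for TXN/TXNIP and TXNIP/ARRDC4, with 1 point per library and a bar at the mean of 3. TXN/TXNIP lies at 1.7 to 1.73 in shControl, 2.96 to 3.22 in GALNT7 KD, 1.26 to 1.3 in OEControl and 42.1 to 45.5 in GALNT7 OE, and TXNIP/ARRDC4 is lower in both treated groups than in their controls.

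Of the 6 genes, all passed the filter on low counts in both lines. In knockdown 1 of 6 passed the limma threshold, TXNIP, against 9.06% of the 17906 genes tested (3.79% passed with a lower level), and 4 of 6 had groups that did not overlap, against 32.5% of all genes. In overexpression, where 43.5% of the 18705 genes tested passed and 55.3% had groups that did not overlap, the groups did not overlap for 4 of 6, TXNIP and ARRDC4 lower and MLX and TXN higher. Nothing is read from this overexpression count, since that comparison was used in the choice. The median log2 fold change of the 6 genes was -0.22 in both comparisons, and that of all genes was -0.006 and -0.011. The 6 overexpression values lay between -4.24 (TXNIP) and 0.85 (TXN), so no common shift is read from their median.

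On the RPKM scale (reads per kilobase of exon, scaled to the library total), TXN had the highest level of the 6 genes in each group. In shControl cells the order was TXN (152 ± 1.71, SD, n=3), TXNIP (88.8 ± 1.74), MLX (23.6 ± 0.274), ARRDC3 (21.6 ± 0.975), MLXIP (11.1 ± 1.49) and ARRDC4 (7.44 ± 0.115). No neighbours in this order overlapped. In GALNT7 KD the order was kept, with TXN at 168 ± 4.77 and TXNIP at 53.6 ± 1.37, but MLXIP (8.44 ± 1.43) and ARRDC4 (7.7 ± 0.151) overlapped. In OEControl cells TXN (131 ± 2.61) and TXNIP (102 ± 0.679) were followed by ARRDC3 (28.9 ± 1.13), MLX (13.9 ± 0.723), MLXIP (8 ± 3.49) and ARRDC4 (5.65 ± 0.195). There MLXIP and ARRDC4 overlapped. In GALNT7 OE cells TXNIP came after TXN (231 ± 3.21), ARRDC3 (26.6 ± 2), MLX (17.1 ± 0.336) and MLXIP (5.67 ± 0.439). TXNIP was at 5.27 ± 0.214, overlapping MLXIP, and ARRDC4 was lowest at 1.38 ± 0.138. Among the tested genes with exon lengths, the level of TXNIP ranked 436th of 17251 in shControl, 835th in GALNT7 KD, 287th of 17918 in OEControl and 7290th in GALNT7 OE.

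The genes with a pattern closest to TXNIP were sought over the 12 libraries, by the root mean square difference in log2(normalised count + 1) after centring on the controls of each line. Among 11815 other genes with a mean of at least 50 in both lines, the nearest were SOD2 (0.581), TMC4 (0.724), VSTM2L (0.725), ZC3H12A (0.748) and CEMIP (0.757). SOD2, mitochondrial superoxide dismutase, went from 41490 ± 619 to 3469 ± 48.1 normalised counts (SD, n=3) in overexpression and from 3122 ± 44.7 to 3644 ± 198 in knockdown. The likeness lay in the overexpression fall, since the log2 fold change in knockdown was 0.22 for SOD2, -0.02 for TMC4, -0.27 for VSTM2L, -0.13 for ZC3H12A and 0.28 for CEMIP, against -0.73 for TXNIP. Among the 5 other genes of the group ARRDC4 was nearest, in 33rd place (1.18), and TXN was the most distant, in 10929th place. This measure uses the libraries that chose TXNIP, so it is a description.

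**Figure D4:**
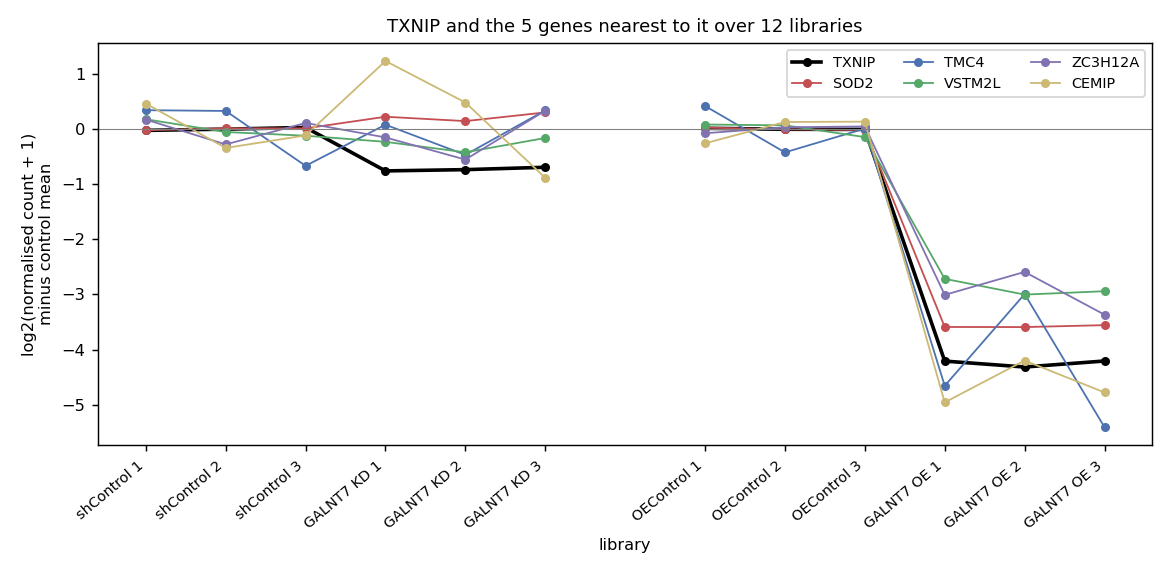
TXNIP and the 5 genes nearest to it over the 12 libraries, as log2(normalised count + 1) minus the control mean of each cell line; lines join the libraries for reading only, since replicates have no order. All 6 lines drop in GALNT7 OE, with TXNIP at -4.32 to -4.21, while in GALNT7 KD TXNIP at -0.76 to -0.69 is the lowest in replicates 1 and 2.

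The other genes of the pathway were followed through 7 lists, chosen with earlier results of these data known. The lists hold 79 distinct genes, none of them among the 6, and are read beside the share of all genes that passed. The other alpha-arrestins, ARRDC1 and ARRDC2, did not pass in knockdown, where their log2 fold changes were -0.38 (limma adjusted p=0.18) and -0.24 (limma adjusted p=0.27). In overexpression both fell, by 0.28 and 0.35 on the log2 scale (limma adjusted p=0.039 and 0.025). The adjusted p was 0.12 for ARRDC1 without OEControl replicate 3 and 0.08 for ARRDC2 without OEControl replicate 1. Neither passed without OEControl replicate 3, GALNT7 OE replicate 2 or GALNT7 OE replicate 3. In overexpression 20.5% of all genes fell. ARRDC5 did not pass the filter on low counts in either line.

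Of 10 tested MYC/MAX/MLX network genes, 1 rose and 1 fell in knockdown (5.28% and 3.79% of all genes), with a median log2 fold change of -0.05. MXI1, a MYC antagonist that pairs with MAX, rose by 0.37 (limma adjusted p=0.014), and MAX, the common partner, fell by 0.52 on the log2 scale (limma adjusted p=0.031). Without GALNT7 KD replicate 1 their limma adjusted p was 0.065 and 0.11. Neither passed without shControl replicate 1 or 3, and 1 passed without shControl replicate 2 or GALNT7 KD replicate 2. In overexpression 0 rose and 6 fell, where 20.5% of all genes fell, with a list median of -0.35. MLXIPL, which encodes ChREBP, the relative of MondoA, fell from 355 ± 30 to 159 ± 20.5 normalised counts (SD, n=3), a log2 fold change of -1.16 (limma adjusted p=4.9e-04). MXD4 fell by 0.89 (limma adjusted p=7.0e-05) and MXD1 by 1.01 on the log2 scale (limma adjusted p=0.025, and 0.072 without OEControl replicate 2). MXI1, higher in knockdown, was lower here (-0.43, limma adjusted p=0.0027).

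The list of genes known as targets of MondoA or ChREBP, without TXNIP and ARRDC4, did not fall with them in overexpression. Whether MondoA or ChREBP controls these genes in these cells was not tested. Of 17 tested, 9 rose (22.9% of all genes rose) and 1 fell, with a median of 0.25. ME1, malic enzyme, rose from 867 ± 22.8 to 2125 ± 111 normalised counts (SD, n=3), a log2 fold change of 1.29 (limma adjusted p=1.3e-05). SCD, a fatty acid desaturase, rose by 0.93 (limma adjusted p=3.8e-06). HK2, a hexokinase, rose by 0.98 (limma adjusted p=0.041), but did not pass in 5 of the 6 fits with 1 library left out. Its limma adjusted p was highest, at 0.11, without OEControl replicate 2. KLF10 and RGS16, other glucose-induced genes, had log2 fold changes of -0.05 (limma adjusted p=0.55) and 0.23 (limma adjusted p=0.48). RGS16 was low, at 28.1 ± 3.69 in OEControl and 33.3 ± 6.32 normalised counts in GALNT7 OE (SD, n=3). In knockdown 1 of 16 passed (9.06% of all genes), with a list median of -0.07. It was SCD, which fell from 11370 ± 207 to 5669 ± 214 normalised counts (SD, n=3, limma adjusted p=1.0e-04). PPP1R3B, a glycogen-targeting subunit, was at -0.47 in knockdown (limma adjusted p=0.058) and fell by 0.45 on the log2 scale in overexpression (limma adjusted p=0.0018).

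In the thioredoxin system, 5 of 15 genes rose and 0 fell in knockdown (5.28% of all genes rose), with a median of 0.10. PRDX1, a peroxiredoxin that thioredoxin reduces, rose from 8318 ± 169 to 12419 ± 359 normalised counts (SD, n=3), a log2 fold change of 0.58 (limma adjusted p=7.0e-04). PRDX5 rose by 0.38 (limma adjusted p=0.0075), SRXN1, which repairs peroxiredoxins, by 0.40 (limma adjusted p=0.008), and MAP3K5, a kinase that thioredoxin inhibits, by 0.62 (limma adjusted p=0.0086). TXNRD1, thioredoxin reductase, rose by 0.21 (limma adjusted p=0.038), but did not pass with any of the 6 libraries left out (adjusted p up to 0.12, without shControl replicate 3). In overexpression 8 rose and 3 fell (22.9% and 20.5% of all genes), with a median of 0.17. PRDX1 rose by 0.59 (limma adjusted p=1.6e-05) and SRXN1 by 0.60 (limma adjusted p=2.1e-05), as in knockdown. TXNRD1 fell by 0.32 (limma adjusted p=3.0e-04), and so did NXN, nucleoredoxin, by 0.87 (limma adjusted p=2.1e-05). MAP3K5 fell by 0.78 on the log2 scale (limma adjusted p=0.017, and 0.057 without OEControl replicate 2).

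**Figure D5:**
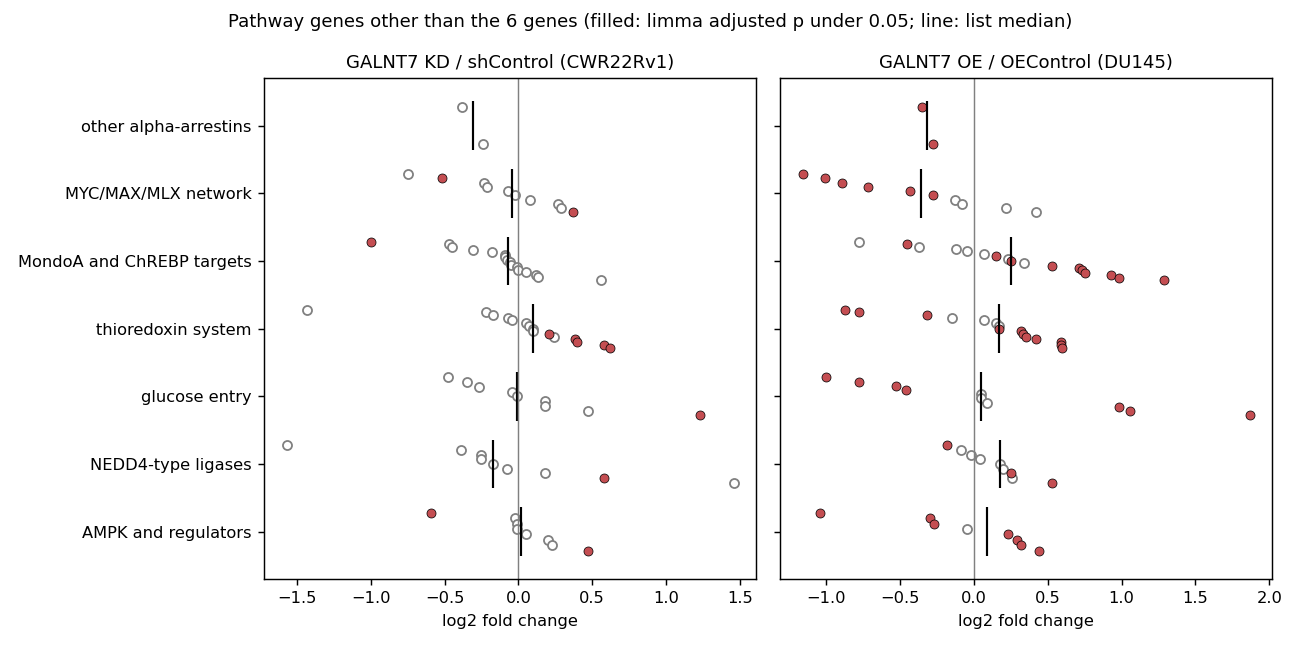
Log2 fold changes of the tested genes of the 7 pathway lists in knockdown and overexpression, without the 6 genes; filled points passed a limma adjusted p of 0.05, black lines mark list medians, and the height of a point within its list has no meaning. In overexpression 6 of 10 MYC/MAX/MLX network genes fell while 9 of 17 MondoA and ChREBP targets rose; in knockdown most points are open.

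Glucose entry genes, among them the transporters that TXNIP and ARRDC4 act on, passed in both directions. In knockdown 1 of 9 rose and 0 fell (5.28% and 3.79% of all genes). It was SLC2A6, from 25.2 ± 2.26 to 60.9 ± 9.81 normalised counts (SD, n=3, limma adjusted p=0.017, and 0.068 without GALNT7 KD replicate 1). In overexpression SLC2A6 fell by 0.46 on the log2 scale (limma adjusted p=0.002). There 3 of 10 rose and 4 fell (22.9% and 20.5% of all genes), with HKDC1 at 1.06 (limma adjusted p=0.0019) and SLC2A10 from 935 ± 59.1 to 468 ± 48.6 normalised counts (SD, n=3, limma adjusted p=3.0e-04). The largest rise among these genes in overexpression was that of SLC2A3, another glucose transporter (log2 fold change 1.87, limma adjusted p=0.0028). Its level was low, at 16.7 ± 6.46 normalised counts in OEControl and 61.5 ± 9.61 in GALNT7 OE (SD, n=3). In knockdown SLC2A3 did not pass the filter on low counts. SLC2A1, the main glucose transporter of many cancer cells, had a log2 fold change of 0.05 in overexpression (limma adjusted p=0.64).

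Of 9 NEDD4-type ubiquitin ligases, the family that arrestins recruit, WWP1 rose in knockdown by 0.58 (limma adjusted p=0.0095) and 0 fell, where 5.28% and 3.79% of all genes did. In overexpression 2 of 9 rose and 1 fell, where 22.9% and 20.5% of all genes did. ITCH, the ligase known to degrade TXNIP protein, rose by 0.53 (limma adjusted p=0.015, and 0.051 without OEControl replicate 3). WWP1 rose by 0.25 (limma adjusted p=0.019, and 0.066 without OEControl replicate 1). NEDD4 fell by 0.18 (limma adjusted p=0.021, and 0.061 without OEControl replicate 3). AMPK, the energy-sensing kinase that marks TXNIP for degradation, was tested together with its activator STK11 and DDIT4, a stress gene that restrains mTORC1, 8 genes in all. In knockdown DDIT4 rose by 0.47 (limma adjusted p=0.021, and 0.074 without shControl replicate 3) and PRKAB1, a subunit encoded on chromosome 12 (median -0.28), fell by 0.59 (limma adjusted p=0.045, and 0.13 without shControl replicate 3), where 5.28% of all genes rose and 3.79% fell. Neither passed without shControl replicate 1, 2 or 3 or GALNT7 KD replicate 1, and 1 passed without GALNT7 KD replicate 2. PRKAB1 also did not pass when centred on its chromosome median. In overexpression 4 of 8 rose and 3 fell (22.9% and 20.5% of all genes), with PRKAB1 at -1.04 (limma adjusted p=3.5e-05). These 7 became 3 without OEControl replicate 1, OEControl replicate 3 or GALNT7 OE replicate 3, and 4 without GALNT7 OE replicate 2.

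Of 6 markers of other cell types, CD68 and COL1A1 were lower in GALNT7 OE. PECAM1 was not (log2 fold change 1.08, limma adjusted p=0.41), with GALNT7 OE replicate 3 at 49.3 normalised counts. The summed normalised count of PTPRC, CD68, PECAM1, VWF, COL1A1 and COL3A1, of which 3 had a mean of at least 5, was 2893 to 3189 in OEControl and 1068 to 1241 in GALNT7 OE libraries. CD68 made up most of it, at 2675 ± 89.2 and 1035 ± 73.3 (SD, n=3). The fibroblast collagen COL1A1 fell from 334 ± 73.6 to 90.6 ± 55.4, a log2 fold change of -2.01 (limma adjusted p=0.0059) against -1.37 for CD68, while the blood marker PTPRC was at most 2.10. In CWR22Rv1 cells the sum was 176 to 191 in shControl and 168 to 250 in GALNT7 KD. Their part in the TXNIP and ARRDC4 values was not tested, and fewer cells with a gene on and less RNA per cell cannot be told apart in these bulk libraries.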

How the data were processed

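RNA from 12 libraries of CWR22Rv1 and DU145 cells was extracted with an RNeasy kit and prepared with a TruSeq Stranded mRNA kit, per the labels. The submitters' processing notes name FastQC, Salmon, DESeq2, R 3.5.3 and hg38; their versions and roles beyond this, the annotation and whether counting used strand are not given in the sources used here. The deposited signal is a normalised count per Ensembl gene, made by the authors by dividing counts by a size factor per library, in 1 table per cell line. Every value was a whole multiple (tolerance 0.01) of the smallest value above 0 in its library, so the reads behind it were recovered (18364512 to 24356910 per library), and these numbers limit the precision of low genes. Salmon estimates counts, so reads shared between genes were divided by model.

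The 6 genes, the gene lists and the tests were chosen with earlier results of these data known. For each cell line alone, log2(normalised count + 1) was fitted with limma 3.58.1 in R 4.3.3 (lmFit and trended eBayes). Genes needed a mean of at least 5, with Benjamini-Hochberg adjustment over all genes tested and a threshold of 0.05. A fold change on this scale understates changes of low genes. Same-numbered libraries were not taken as pairs. Alternatives were pseudocounts of 5 and 0.5, no filter, a mean of at least 50, a blocked fit on the replicate number, quantile normalisation, scaling by the 75th percentile, untrended eBayes, edgeR 4.0.16 and DESeq2 1.42.0 on recovered reads, centring on chromosome medians, a threshold of 0.01 and each library left out. In simulated counts with 200 genes changed 2-fold, limma recovered 197 in a simulated knockdown (17914 genes, 11 wrongly called) and 199 in a simulated overexpression (18711 genes, 8 wrongly called). The simulation gave all genes the same dispersion and changed only genes with a mean of at least 50. It therefore checks the code and does not measure recovery in the real libraries. Positions and exon lengths are from GENCODE 29, promoters from RefSeq (GRCh38.p14), with all 6 genes matched. List genes named are those past the threshold in knockdown and, per list and comparison, up to 3 past it with the largest change and a mean of at least 50. Outside this rule, KLF10, RGS16, PPP1R3B, SLC2A1, SLC2A3, the knockdown values of ARRDC1 and ARRDC2 and the marker genes were named after their values were seen. The values of some marker genes are not reported here, PKLR, a listed target, was not analysed here, and no protein sequences were compared.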

Additional observations from a re-analysis of the deposited data

How the results depend on the processing

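Over 18 alternatives in knockdown and 17 in overexpression, no log2 fold change of the 6 genes changed sign. TXNIP lay between -0.76 and -0.72 in knockdown and between -4.30 and -4.21 in overexpression, and ARRDC4 in overexpression from -2.07 to -1.92. With DESeq2 on recovered reads ARRDC3 (-0.43, adjusted p=0.0069), MLXIP (-0.40, adjusted p=0.0499) and TXN (0.13, adjusted p=0.036) also passed in knockdown, 4 of the 6 genes. With chromosome-median centring 2 passed, ARRDC3 being at -0.57 (limma adjusted p=0.02). Over all alternatives the adjusted p ranged from 0.0069 to 0.19 for ARRDC3, 0.0499 to 0.47 for MLXIP and 0.036 to 0.28 for TXN; the cause was not tested. In overexpression MLX was at 0.22 with quantile normalisation and 0.47 with chromosome centring, and TXN at 0.79 with 75th percentile rescaling and 0.76 with quantile normalisation. The 1623 genes called in knockdown were 2666 with DESeq2, 392 at 0.01, 996 without the eBayes trend and 1002 with the replicate block, and 539 to 1336 with 1 library left out. They were 555, 848 and 686 without shControl replicate 1, 2 and 3 and 539 and 1026 without GALNT7 KD replicate 1 and 2, where fewer samples enter the fit. The 12 pathway list genes called in knockdown were 6 at 0.01 and 6 to 12 with 1 library left out. In overexpression the 8132 genes were 5303 and the 45 list genes 27 at 0.01. Same-numbered libraries correlated at -0.011 to 0.0747 in knockdown and 0.0159 to 0.0432 in overexpression, so the replicate number was not treated as a pairing. No value of the 6 genes rested on fewer than 121 reads, so the spread between 3 libraries is the limit.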

Other observations

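The 20 promoters with the paired CACGNG sites belong to TXNIP and to genes chosen here only after the matches were seen, of which 15 besides TXNIP were tested. In overexpression 2 of the 15 fell, MYL5 from 303 ± 9.5 to 145 ± 7.9 and RCN3 from 331 ± 28.3 to 198 ± 34.7 normalised counts (SD, n=3), and 5 rose, with a median log2 fold change of -0.01; over all genes 20.5% fell and 22.9% rose. In knockdown GFPT1, the entry enzyme of the hexosamine pathway (0.56, limma adjusted p=0.014), and P4HA1 (0.54, limma adjusted p=0.041) rose, and RAN fell by 0.34 (limma adjusted p=0.003), with a median of 0.16; over all genes 5.28% rose and 3.79% fell. RAN lies on chromosome 12, whose genes had a median log2 fold change of -0.28 in knockdown, and the part of that shift in its value was not tested.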
